A study of Mus musculus with 6 samples.

Results

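Chromosomes 7 and 8 were the mouse autosomes with the fewest consensus sites of Bloodlinc per megabase, and every deposited peak on them was taken. Bloodlinc (alncRNA-EC7) is a long noncoding RNA made from an erythroid super-enhancer, and its contacts with chromatin were mapped by ChIRP-seq, in which biotinylated oligonucleotides pull down an RNA from crosslinked chromatin and the attached DNA is sequenced. The chromosomes held 3739 of the 39495 entries of 4 peak lists. These were 1687 of 18114 peaks found with the even-numbered probes, 2015 of 20596 found with the odd-numbered probes, 27 of 517 in a pulldown labelled with neither pool, and 10 of the 268 consensus intervals. Chromosome 7 held 900 even, 1067 odd and 20 pulldown peaks and 6 consensus intervals. Chromosome 8 held 787 even, 948 odd and 7 pulldown peaks and 4 consensus intervals.

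All 6 libraries came from MEL cells, a mouse erythroleukaemia line that matures along the red cell path under dimethyl sulfoxide (DMSO), and all are labelled as taken after 5 days in 2% DMSO. Each condition had 1 library: the pulldown, the 2 probe pools, the input, and controls in which probes were left out or RNase was added. The names of the input's peaks carry a day tag that differs from its label. No spread between cultures exists, so no test was made. Intervals in brackets are exact (Clopper-Pearson) 95% binomial intervals, which cover only the counting of peaks, and the range over the other 17 autosomes is given as the yardstick of how far chromosomes of this genome differed from each other. Read depth is unknown, since the lists give peaks without counts.

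The ChIRP design rests on a simple idea. Even and odd probes tile the same RNA but share no oligonucleotide, so DNA held by the RNA should come with both pools, whereas DNA that pairs with a single probe should come with one pool. A consensus interval here is a stretch where an even, an odd and a pulldown peak all overlap, so a chromosome can fall short at 3 steps: few peaks in the pools, little sharing between the pools, or few shared peaks that recur in the pulldown. Chromosomes 7 and 8 are of interest in this lineage because, as background, chromosome 7 carries the β-globin genes (Hbb-bs, Hbb-bt, Hbb-bh1 and Hbb-y), and chromosome 8 carries Klf1, which encodes an erythroid transcription factor that activates adult β-globin.

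The chromosomes were selected on their count of consensus intervals for their length, so these counts are a description. Consensus density was 0.0402 intervals per Mb on chromosome 7 and 0.0312 on chromosome 8, against 0.117 over the other autosomes pooled. The next chromosomes outside the choice were chromosome 18 with 0.0456 (4 intervals), chromosome X with 0.0496 (8 intervals) and chromosome 16 with 0.0526 (5 intervals), so the choice cut through a continuous order. At the density of the other autosomes, chromosome 7 would have held 17.5 intervals and chromosome 8 would have held 15.004. Length was the span between the first and last position of any list, 149 Mb on chromosome 7 and 128 Mb on chromosome 8.

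Over all listed peaks, the shortfall was small in the pools, smaller still in the sharing between pools and large in the pulldown. Even peaks stood at 6.03 per Mb on chromosome 7 and 6.14 on chromosome 8, against 7.45 over the other autosomes, which is 0.810 (0.756 to 0.866) and 0.825 (0.767 to 0.886) of that density. Odd peaks stood at 7.15 and 7.40 per Mb against 8.40, or 0.851 (0.800 to 0.906) and 0.881 (0.824 to 0.940). Among the other 17 autosomes the even density ran from 6.07 on chromosome 14 to 10.6 on chromosome 15, and the odd density from 7.19 on chromosome 4 to 10.8 on chromosome 15. Chromosome 7 was thus just below that range in both pools, and chromosome 8 had 1 other autosome below it in each.

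Over all listed peaks, sharing between the pools was within the range of other autosomes. On chromosome 7, 132 even peaks met an odd peak by at least 1 bp, which is 14.7% (12.4% to 17.1%). On chromosome 8 it was 115, or 14.6% (12.2% to 17.3%). The share over the whole even list was 15.4%, and other autosomes ran from 13.1% to 17.5%, with 6 of them below each of the chromosomes described here. Seen from the odd list, 12.4% (10.5% to 14.5%) of peaks on chromosome 7 and 12.1% (10.1% to 14.4%) on chromosome 8 met an even peak, against 13.5% over the whole odd list. The range over other autosomes was 11.6% to 16.3%. Among the 50% of peaks with the highest score in each pool, sharing on chromosome 7 was lower, at 0.677 (even) and 0.702 (odd) of the share on other autosomes, against 0.948 and 0.902 over all peaks.

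Presence in the pulldown held most of the difference. Of the 132 shared even peaks of chromosome 7, 6 also met a pulldown peak, or 4.55% (1.69% to 9.63%). Of the 115 on chromosome 8 it was 4, or 3.48% (0.956% to 8.67%). Over the whole series the share was 9.61%, and over the other autosomes together 10.2% (8.998% to 11.4%). Chromosome 8 lay below all 17 other autosomes, whose lowest was chromosome 18 with 4.26% and highest chromosome 15 with 15.3%, and chromosome 7 lay above chromosome 18 alone. These shares come from the contrast that chose the chromosomes, so nothing further is read from how low they are.

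Consensus density is the product of the 3 steps, and on a log2 scale their parts add up. On chromosome 7 the log2 ratio to other autosomes was -1.54, made of -0.30 from even density, -0.08 from sharing and -1.16 from the pulldown step, which was 75.3% of the total. On chromosome 8 the ratio was -1.91, made of -0.28, -0.08 and -1.55, with 81.1% at the pulldown step. Among the other autosomes, chromosome 18 had a like profile, with -0.09, -0.01 and -1.26. The total split here is the density for which the chromosomes were chosen, so the parts are a description. The pulldown ratio was 0.447 (0.166 to 0.947) on chromosome 7 and 0.342 (0.0940 to 0.852) on chromosome 8. The percentages carry no interval. They also depend on the peaks taken, since sharing on chromosome 7 was 0.677 with the top 50% by score.

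**Figure D1:**
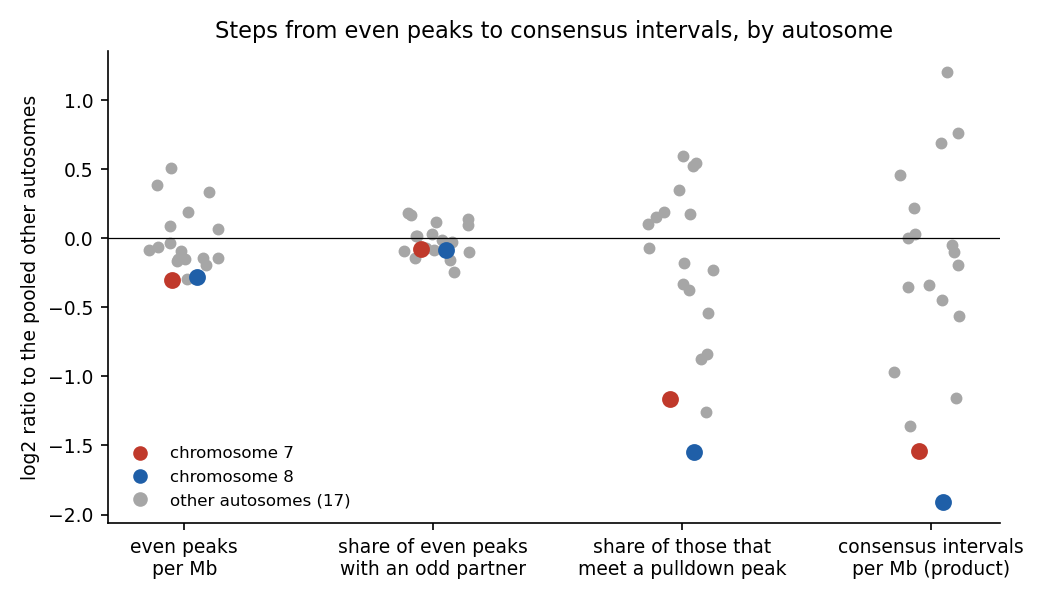
Each point is an autosome, and the vertical axis is the log2 ratio to the other 17 autosomes pooled, for even peaks per Mb, the share of even peaks with an odd partner, the share of those that meet a pulldown peak, and their product. Chromosomes 7 and 8 sit near 0 for sharing, at -0.30 and -0.28 for density, and at -1.16 and -1.55 for presence in the pulldown.

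Read from the side of the pulldown, the 2 chromosomes fell short in different places, with intervals too wide to set them apart. Chromosome 8 had few pulldown peaks, 7 where the density of other autosomes gives 28.1, a ratio of 0.249 (0.0995 to 0.517) and the lowest of the 19 autosomes. Of these 7, 4 met both an even and an odd peak, which is 57.1% (18.4% to 90.1%) and near the share over the whole pulldown list, 51.6%. Chromosome 7 had 20 pulldown peaks where 32.8 would match other autosomes, a ratio of 0.610 (0.369 to 0.953), and 3 other autosomes had a lower density. Of its 20 pulldown peaks 6 met both pools, or 30% (11.9% to 54.3%), below the range of other autosomes, 38.9% to 71.4%. With 20 and 7 peaks, the intervals of both shares include the share over all peaks.

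Where a pulldown peak of chromosome 7 lacked a partner, it was more often the even one, as on the other autosomes, where 178 pulldown peaks met an odd peak alone and 39 an even peak alone. On chromosome 7, 17 of 20 pulldown peaks met an odd peak, or 85% (62.1% to 96.8%), where the whole list had 91.1%. An even peak was met by 9 of 20, or 45.0% (23.1% to 68.5%), where the whole list had 60.2%. Thus 11 pulldown peaks of chromosome 7 met an odd peak alone, 55.0% (31.5% to 76.9%) an interval that includes the 39.5% of the whole list, and 3 met an even peak alone. On chromosome 8, 6 of 7 met an odd peak, 5 of 7 met an even peak, 2 met an odd peak alone and 1 met an even peak alone. No pulldown peak of either chromosome lacked both partners, and on the other autosomes only 2 of 467 did.

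The 6 consensus intervals of chromosome 7 lay in 3 pairs of neighbouring sites, with none in the first 14 of the 31 bins of 5 Mb described later. Neighbouring pulldown peaks of the chromosome lay 1.82 Mb apart at the median, so the pairing is not read as clustering. Positions are in mm9 and counted from 1. The first pair was at 73413503 to 73413954 (452 bp) and 74614508 to 74615000 (493 bp). Their pulldown scores were 1070 and 821, ranks 56 and 271 of 517. Scores are the authors' own and of unstated scale, so only their rank within a list is read. The next pair, at 108602707 to 108603188 (482 bp) and 108851228 to 108851647 (420 bp), had pulldown scores of 681 and 637, ranks 481 and 514, both in the lowest decile of the list. The last pair was at 117923714 to 117924151 (438 bp) and 119715788 to 119716311 (524 bp), with pulldown scores of 880 and 801, ranks 175 and 303.

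In the pools, these 6 sites mostly ranked high with even probes and lower with odd probes, as most consensus sites of other autosomes did. Their even ranks were 871, 660, 1693, 1729, 195 and 2135 of 18114 in the order given, so all lay in the 2 highest deciles of the even list. Their odd ranks were 12693, 11780, 6716, 9253, 10656 and 1504 of 20596. The site at 119715788 was the exception, with a better rank in the odd list than in the even list. None of the 6 stood in the top decile of consensus scores. On the other autosomes, 228 of 249 consensus sites lay in the highest even decile and 16 in the next. Their odd partners had a median percentile of 65.5, with 11.7% in the highest odd decile, against a median of 51.6 on chromosome 7. The pool order is therefore not particular to chromosome 7.

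Chromosome 8 held 4 consensus intervals, spread singly over the chromosome. The strongest was at 87450954 to 87451461 (508 bp), with a pulldown score of 1300 (rank 18 of 517), an even score of 3373 (rank 259) and an odd score of 1760 (rank 5180). The others were at 28193493 to 28194019 (527 bp, pulldown score 897), 63719991 to 63720508 (518 bp, 854) and 97673521 to 97673928 (408 bp, 866). Their even ranks were 4735, 2547 and 6695, and their odd ranks 1773, 10446 and 1567. The sites at 28193493 and 97673521 thus had the opposite pool order to most sites of chromosome 7, with the odd peak ranked higher.

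An even partner of low rank was uncommon in the consensus elsewhere. Among shared even peaks in the lower 8 deciles of the even score, 2 of 32 on chromosome 8 met a pulldown peak (6.25%, 0.766% to 20.8%), namely the 2 sites just named (a comparison chosen after seeing the values). On chromosome 7 it was 0 of 29, which allows a share of up to 11.9%, and on the other autosomes 5 of 548 (0.912%, 0.297% to 2.12%).

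The pulldown peaks left out of the consensus had strong partners in the pool that did find them. On chromosome 7 the 3 with the highest pulldown score were at 57108386 to 57109100 (score 1489, rank 10), 150980703 to 150981301 (score 904, rank 146) and 86675744 to 86676318 (score 899, rank 149). Each met an odd peak, ranked 95, 654 and 501 of 20596, and no even peak, the nearest being 19825, 20509 and 30346 bp away. On chromosome 8 all 3 such peaks were at 71596013 to 71596615 (score 1587, rank 8), 72994052 to 72994637 (score 1030, rank 71) and 97608625 to 97609184 (score 683, rank 479). The first of these met the odd peak with the highest score of the whole odd list, 5608, at 71595974 to 71596720, and the nearest even peak was 188 kb away. A site that ranked first with odd probes and 8th in the pulldown was therefore not in the consensus. The peak at 72994052 met the odd peak of rank 132, with the nearest even peak at 9869 bp. The peak at 97608625 met an even peak of rank 3202 and no odd peak within 36843 bp.

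Over both chromosomes, the 13 pulldown peaks with an odd partner alone had odd scores of 3190 to 5608 (median 3979), and the nearest even peak was 9.87 to 188 kb away (median 20.5 kb). No case was a near miss by a few bases. All 11 such partners on chromosome 7 and both on chromosome 8 were in the highest decile of odd scores, as were 97.5% over the whole series. The odd partners of consensus sites had a median score of 1182 on chromosome 7 (6 sites) and 2243.5 on chromosome 8 (4 sites), below and above the 1485.5 of other autosomes. The 4 pulldown peaks with an even partner alone had even scores of 1967 to 3397, with the nearest odd peak 7.39 to 100 kb away.

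**Figure D2:**
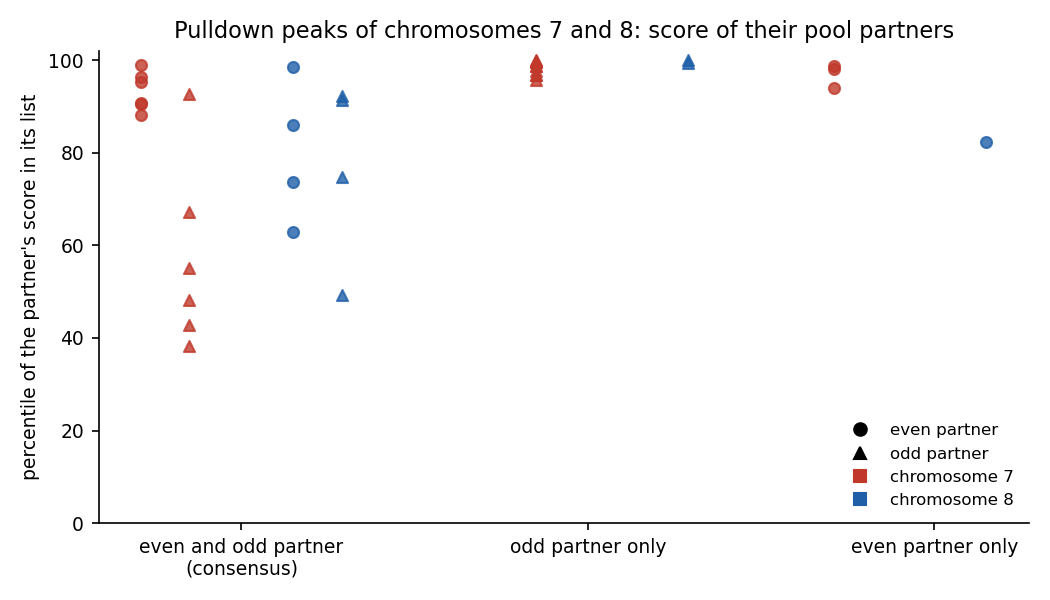
Each symbol is the pool partner of a pulldown peak of chromosome 7 (red) or 8 (blue), circles for even and triangles for odd partners, and the vertical axis is the percentile of its score within its own list. Partners of pulldown peaks that met the odd pool alone sit at percentile 95.7 or above, whereas odd partners of consensus sites spread from percentile 38.3 to percentile 92.7.

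Most shared peaks had no pulldown peak, here as elsewhere. On chromosome 7, 126 of 132 shared even peaks met none, on chromosome 8, 111 of 115, and on the other autosomes 2200 of 2449. The 3 with the highest even score on chromosome 7 were at 13599690 to 13600261 (even score 4052, rank 25; odd rank 716), 133342583 to 133343127 (3911, rank 51; odd rank 2340) and 108974432 to 108975028 (3723, rank 90; odd rank 1719). On chromosome 8 they were at 49130684 to 49131319 (3945, rank 44; odd rank 4616), 96152035 to 96152673 (3817, rank 68; odd rank 2622) and 72775272 to 72775813 (3769, rank 79; odd rank 6231). All 6 outranked every consensus site of the same chromosome in the even list, but they are the top of 126 and 111 peaks set against 6 and 4 sites. The median even score of shared peaks with and without a pulldown peak was 2654 and 2337 on chromosome 7. It was 1880 and 2353 on chromosome 8, and 3259 and 2419 on the other autosomes. The nearest listed pulldown peak was 17.04, 0.210 and 0.123 Mb away on chromosome 7 and 14.6, 1.46 and 0.218 Mb away on chromosome 8.

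Median pool scores of the 2 chromosomes lay within the range of other autosomes. The median even score was 1128 on chromosome 7 and 1075 on chromosome 8, and the medians of the other autosomes ran from 1024 to 1131. The median odd score was 1126 and 1165, against 1106 to 1185. The highest decile of odd scores took 11.9% (10.02% to 13.998%) of odd peaks on chromosome 7 and 7.70% (6.08% to 9.58%) on chromosome 8. For even scores it took 9% (7.21% to 11.1%) and 8.26% (6.43% to 10.4%). If shared even peaks had met the pulldown at the share seen on other autosomes in the same decile of even score, 12.02 would have done so on chromosome 7 and 10.2 on chromosome 8, where 6 and 4 did. By decile of odd score the figures were 12.3 and 12.4. The observed 6 and 4 are the consensus counts for which the chromosomes were chosen, so nothing is read from their lying below these figures.

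The strongest even peaks were compared separately. In the highest decile of even score, 63 of 81 peaks on chromosome 7 and 53 of 65 on chromosome 8 met an odd peak, which is 77.8% (67.2% to 86.3%) and 81.5% (70.0% to 90.1%), where the whole list had 83.0%. Of those, 5 of 63 on chromosome 7 (7.94%, 2.63% to 17.6%) and 1 of 53 on chromosome 8 (1.89%, 0.0478% to 10.1%) met a pulldown peak. The share over the whole list was 16.1%, and over the other autosomes 16.9% (14.9% to 19.02%). The intervals of both sharing shares in this decile include the share of the whole list. The pulldown shares count consensus sites, on which the chromosomes were selected, so nothing is read from their being low. For odd peaks of the highest decile, 12 of 127 on chromosome 7 (9.45%, 4.98% to 15.9%) and 4 of 73 on chromosome 8 (5.48%, 1.51% to 13.4%) met a pulldown peak, where the whole list had 11.3%. Over odd peaks of any score, 17 on chromosome 7 (1.59%, 0.931% to 2.54%) and 6 on chromosome 8 (0.633%, 0.233% to 1.37%) met a pulldown peak, where the whole list had 2.29%.

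**Figure D3:**
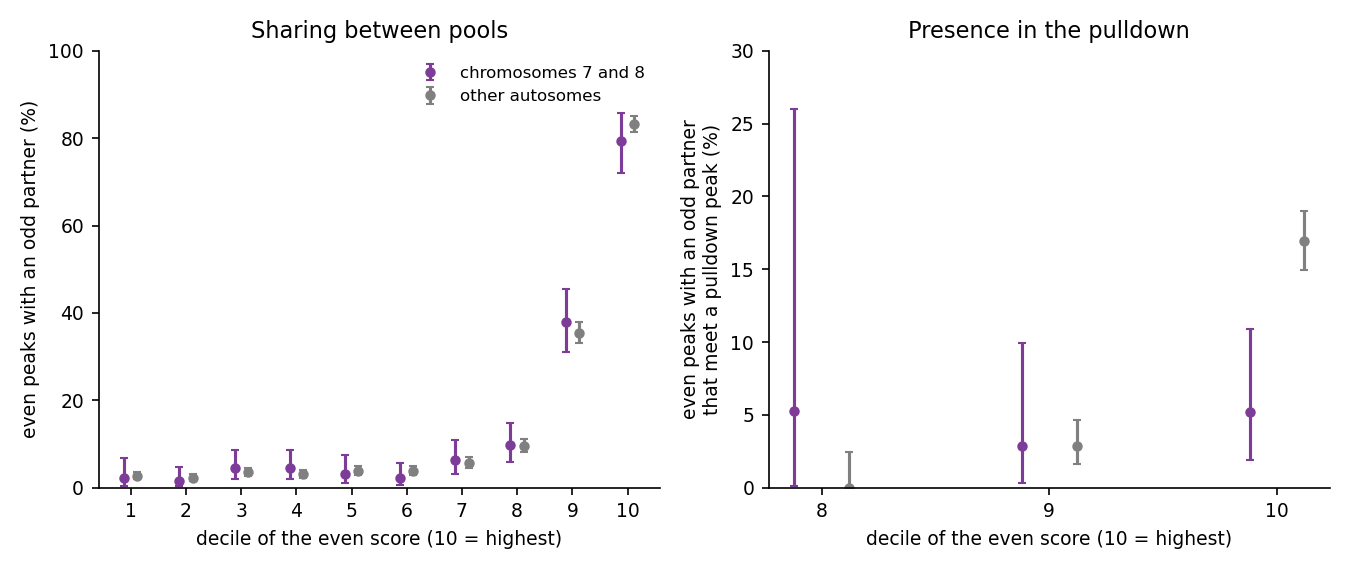
The left panel plots the percentage of even peaks with an odd partner by decile of the even score, and the right panel the percentage of those that meet a pulldown peak in the 3 highest deciles, for chromosomes 7 and 8 together and for the other autosomes, with exact 95% binomial intervals. The left panel shows overlapping intervals in the highest decile; the right panel (5.17% on chromosomes 7 and 8 and 16.9% elsewhere in that decile) describes the consensus sites whose low count selected the chromosomes.

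Peak names allowed a look behind the lists. Every name ends in a number, and in all 7 deposited lists the numbers rise along each chromosome and from chromosome to chromosome in name order. In the pulldown list they run to 27800 for 517 peaks, in the even list to 124782 and in the odd list to 120836, so a gap in the numbers is taken to count peaks that were numbered and are not listed. No label states how the listed peaks were selected. Numbered peaks were counted between the first and last listed peak of a chromosome, on the assumption that no number was skipped, which was not tested.

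In the pools, chromosome 8 was low in the part of numbered peaks that is listed, not in the number of numbered peaks. Its numbered density was 48.5 even and 47.4 odd peaks per Mb, close to the median of other autosomes (48.8 and 46.5). Of the numbered even peaks 12.7% were listed on chromosome 8 and 12.9% on chromosome 7, both below the range of the other 17 autosomes, 13.6% to 17.8%. Of the numbered odd peaks 15.6% and 16.3% were listed, and 1 other autosome, chromosome 4 with 15.5%, lay below. Chromosome 7 had fewer numbered peaks as well, 46.7 even and 43.9 odd per Mb, the latter below all other autosomes.

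In the pulldown, chromosome 8 was low in the listed part, and in numbered density over the part of its length that could be counted. Its numbered density between the first and last listed peak was 7.74 per Mb (538 numbered peaks over 69.5 Mb), below the other autosomes, whose range was 8.50 to 16.3. Of the 538 numbered peaks 7 were listed, or 1.30%, where the other autosomes together had 2.07%. Chromosomes 18 (0.913%) and 10 (1.11%) listed a smaller part. Counting every number that could lie on it, chromosome 8 had at most 9.76 numbered pulldown peaks per Mb, and 1 other autosome had a lower such limit. On chromosome 7 the numbered density was 9.85 per Mb (1185 over 120 Mb) and 1.69% were listed, with 2 and 5 other autosomes lower.

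**Figure D4:**
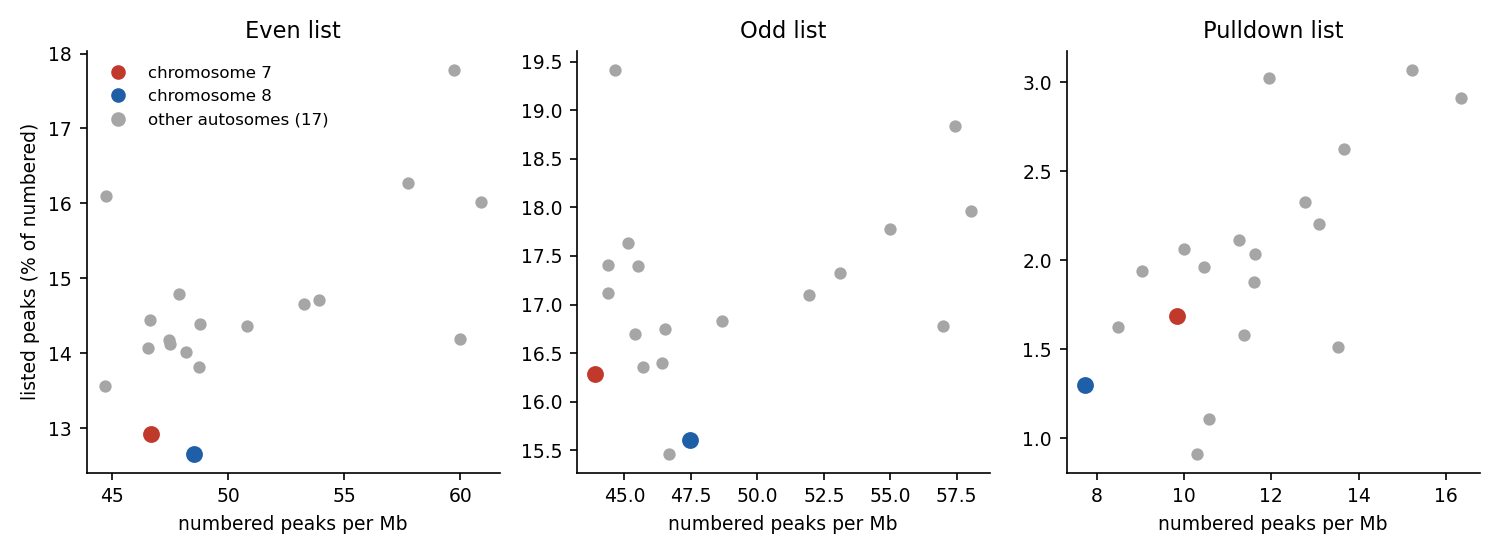
Each point is an autosome, with numbered peaks per Mb between its first and last listed peak on the horizontal axis and the percentage of them that is listed on the vertical axis, for the even, odd and pulldown lists (axes do not start at 0). Chromosomes 7 and 8 list the smallest part of their even peaks, 12.9% and 12.7%. Chromosome 8 has the lowest numbered density of the pulldown, 7.74 per Mb, counted over 69.5 Mb of its 128 Mb.

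Density along the chromosomes was described in fixed bins of 5 Mb, 31 on chromosome 7 and 27 on chromosome 8. The median bin held 27 even peaks on each chromosome, and 35 odd peaks on chromosome 7 and 36 on chromosome 8. Other autosomes had medians of 33 and 39 over 447 bins. Density was higher in the distal bins. On chromosome 7 the 15 bins up to 75 Mb held 315 even and 375 odd peaks and the 16 bins beyond held 585 and 692. On chromosome 8 the 13 bins up to 65 Mb held 306 and 378, and the 14 beyond 481 and 570. The fullest even bin was at 145 to 150 Mb on chromosome 7 (66 peaks) and at 120 to 125 Mb on chromosome 8 (56 peaks). The fullest odd bins held 56 peaks on chromosome 7 (at 105 to 110, 135 to 140 and 140 to 145 Mb) and 70 on chromosome 8 (at 125 to 130 Mb). The bin at 40 to 45 Mb of chromosome 7 had no peak of any of the 4 lists, and on chromosome 8 no bin lacked even or odd peaks.

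Peaks of chromosome 7 were also absent from more of its length. Windows of 100 kb with a peak of any list made up 61.4% of its span, below the range of the other autosomes (65.1% to 80.3%). Chromosome 8 had 67.0%, with 3 others below it. With only such windows counted as length, the even density of chromosome 7 was 0.936 and the odd density 0.984 of that of other autosomes, both closer to 1 than over the full span.

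Most bins had no pulldown peak, including bins rich in shared peaks. On chromosome 7 it was 21 of 31 (67.7%) and on chromosome 8 22 of 27 (81.5%), against 49.4% over the other autosomes and at most 65.6% on any of them. No consensus interval was found in 28 of 31 bins (90.3%) of chromosome 7 and 23 of 27 (85.2%) of chromosome 8, where the other autosomes had 65.8%. Of the bins with at least 5 shared even peaks, 11 of 15 on chromosome 7 and 8 of 11 on chromosome 8 had no pulldown peak, against 80 of 252 on other autosomes. The chromosomes were chosen for few consensus intervals, and a small number of pulldown peaks or intervals leaves many bins empty. Nothing further is read from these contrasts. The highest bins for the pulldown on chromosome 7, at 105 to 110 and 115 to 120 Mb, held 4 pulldown peaks and 2 consensus intervals each. On chromosome 8 no bin held more than 2 pulldown peaks or 1 consensus interval.

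**Figure D5:**
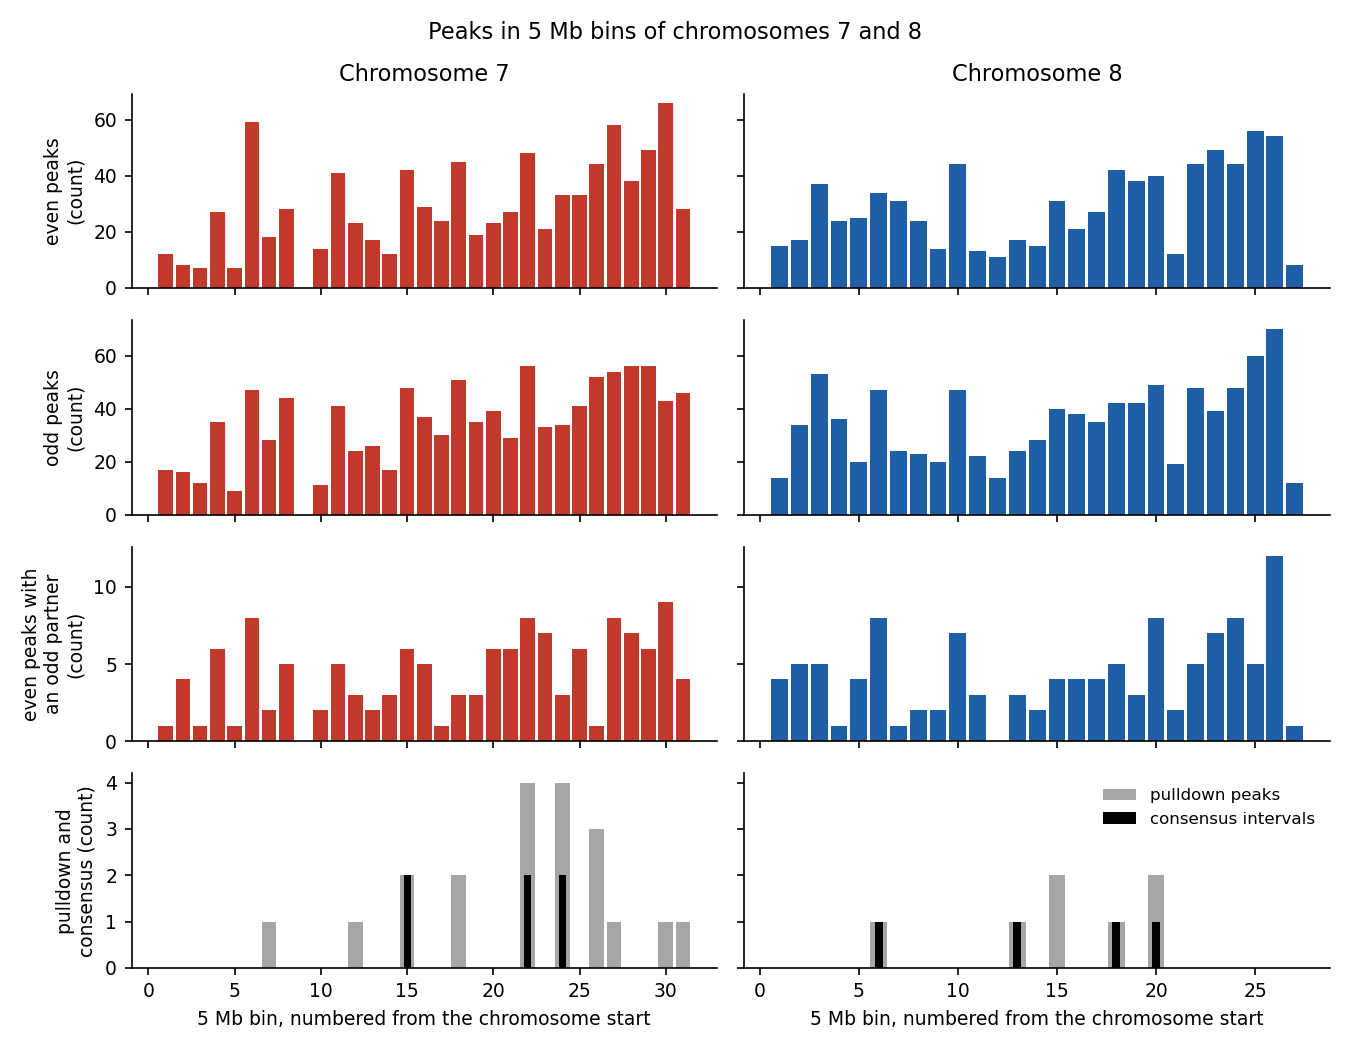
Bars give the count of even peaks, odd peaks, even peaks with an odd partner, and (bottom row) pulldown peaks in grey with consensus intervals in black, in 5 Mb bins numbered from the chromosome start, for chromosome 7 on the left and chromosome 8 on the right. The last 7 bins of chromosome 8 hold no pulldown peak, although bin 26 has 12 even peaks with an odd partner.

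The distal end of chromosome 8 was its stretch without a listed pulldown peak that held the most shared even peaks. From the last pulldown peak to the last position of any list, 97674014 to 131258020 (33.6 Mb), there were 282 even and 320 odd peaks and 44 shared even peaks, 19 of them in the highest decile of even score, and no listed pulldown peak. On the other 17 autosomes, the stretch without a pulldown peak that held the most shared even peaks held 11 to 36. Chromosome 8 had only 7 pulldown peaks, and few peaks leave long stretches between them, so nothing further is read from this difference. At most 468 numbered pulldown peaks lay between this last peak and the first listed one of chromosome 9, some of which may belong to chromosome 9. The longest such stretch of chromosome 8 was 35.5 Mb, from 28194020 to 63719982, with 19 shared even peaks and 185 numbered, unlisted pulldown peaks. On chromosome 7 it was the first 27.3 Mb, up to 30637768, with 21 shared even peaks. The longest stretch of each other autosome ran from 10.95 to 51.9 Mb, a range that holds both lengths.

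Background peaks were few on both chromosomes and met none of these sites. Chromosome 7 held 5 input, 5 no-probe and 4 RNase control peaks, and chromosome 8 held 2, 2 and 3. None met an even, odd, pulldown or consensus entry or a peak of another control. All 10 consensus intervals were at least 326 kb from the nearest control peak. With so few control peaks, neither the lack of overlap nor this distance says much about background at these sites. The overlap of control peaks over all autosomes is not given here for comparison. Control peaks per Mb were lower here than over the other autosomes pooled, but each density rests on 2 to 5 peaks. No counting interval or range over single autosomes was computed for them. Input peaks stood at 0.0335 per Mb on chromosome 7 and 0.0156 on chromosome 8 against 0.0644 over other autosomes. For no-probe peaks it was 0.0335 and 0.0156 against 0.0513, and for RNase peaks 0.0268 and 0.0234 against 0.0536. Whether background bears on the low pulldown density was not tested.

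Genes at the consensus intervals are not named. A list of 55 genes held globin, haem, membrane and transcription factor genes of red cells, and others such as Prdx2, Mt1 and Igf2. Of these, 51 matched the RefSeq table of another build, GRCm38.p6, which places 10 on chromosome 7 and 9 on chromosome 8. Those on chromosome 8 include Klf1, Ank1 (the membrane anchor ankyrin), Lyl1 and Zfpm1 (the GATA1 cofactor FOG1), and those on chromosome 7 include the β-globin genes, Sox6 (a repressor of embryonic globin) and Uros (an enzyme of haem synthesis). Coordinates of that build are not mm9 positions, no mm9 annotation was given, and positions were not converted between builds. The distance of these genes from the 10 intervals was therefore not measured here. No sequence is shown, since no mm9 genome was given.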

How the data were processed

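ChIRP-seq peak lists of 6 MEL libraries, 1 per condition, and the consensus list were used. The tools Bowtie2 and bedtools and the build mm9 come from the submitters' processing notes. The sources used here do not give versions, peak caller, thresholds or whether the pulldown pools reads of other libraries. The only measurement is the deposited peak score, a whole number of unstated scale, used to rank peaks within a list. Peaks overlapped when they shared at least 1 bp. A shared even peak is one that met an odd peak. Density is peaks over the span between the first and last position of any list, and ratios of densities carry conditional exact binomial intervals. Regions named are all consensus intervals, and the 3 highest pulldown peaks outside the consensus and the 3 highest shared even peaks without a pulldown peak on each chromosome. The chromosomes, the gene list and the measures were chosen with earlier results of these data known. Functions were tested on simulated data. Python 3.11.15, numpy 2.4.6, pandas 2.3.3, SciPy 1.17.1 and matplotlib 3.10.9 were used. Alternatives were other overlap rules, the top 50% of pool peaks by score, other reference chromosomes, length as occupied 100 kb windows, and shifted or 10 Mb bins.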

Additional observations from a re-analysis of the deposited data

How the results depend on the processing

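Of 108 values recomputed under alternatives, 103 stayed within the counting interval of the reported value. The alternatives reuse the same peaks and many of these intervals are wide, so this count says little about how firm the values are. With the top 50% of even and odd peaks by score, the ratio of the share of even peaks with an odd partner on chromosome 7 was 0.677 and that of odd peaks with an even partner 0.702, and the cause was not tested. With occupied 100 kb windows as the length, the density ratios of chromosome 7 were 0.936 (even) and 0.984 (odd). Even and odd peaks define most of these windows, so this alternative draws densities together. With 10 Mb bins, 37.5% of bins of chromosome 7 had no pulldown peak, since wider bins hold more peaks. The ratio of the share of shared even peaks in the pulldown ran from 0.383 to 0.484 on chromosome 7 and from 0.337 to 0.410 on chromosome 8. Counts of 27 pulldown peaks and 10 consensus intervals limit every share of them. No paired analysis was possible because each condition has 1 library.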
